A study of Danio rerio with 9 samples.

Results

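Cell cycle and DNA replication genes were followed through the 3 sorted cell populations of the zebrafish notochord sheath, the layer of cells around the core of the notochord. The set held 44 gene names, chosen for their known place in DNA replication, mitosis, entry into S phase or arrest of the cycle. They were not picked by their values, but earlier results of these data were known when they were chosen. Of these names, 43 matched the name table of the 32266 gene IDs in each library, 10 with the spelling unchanged, 30 in another case and 3 without the letter that marks a zebrafish paralog. The name ube2c had no match and has no value here. Because MCM6, RRM2, CCND2 and CDKN1B each name 2 IDs, the 43 names gave 47 IDs, and these 4 names are printed with their ID. The table does not tell which CCND2 ID is ccnd2a or which CDKN1B ID is cdkn1bb, so both IDs of each pair are given. Of the 47 IDs, 46 passed the count filter, among 19039 genes in all: 14 replication, 21 mitosis, 7 G1/S and 4 CDK inhibitor IDs. The ID that did not pass, MCM6 (ENSDARG00000033231), stood between 0 and 0.652 CPM (counts scaled to the same library total) in the 9 libraries.

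RNA was sequenced from sheath cells of EK strain fish at 13 days post fertilization. Fluorescence sorting gave a col9a2+, a double-positive (col9a2 and entpd5a) and an entpd5a+ population, with 3 libraries each. The study's design calls the fish transgenic, the genotype label of every sample reads wild type, and the labels name neither the promoters of the reporters nor the number of fish behind a library. The title places the populations in the question of how a segmented sheath guides the pattern of the spine, and the comparisons here ask whether they differ in the transcripts of dividing cells.

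DNA is copied once per division because the MCM helicase is loaded onto replication origins in G1 and fired in S phase. PCNA then holds the polymerases on the template, while ribonucleotide reductase and thymidylate synthase supply the nucleotides. Most replication genes are transcribed before and during S phase under E2F factors, and most mitosis genes later, in G2, under a separate set of factors. D-type cyclins couple growth signals to this start, and the CDK inhibitors of the p21, p27 and p57 family stop it. In the growing zebrafish notochord, sheath cells can divide, and cells that mineralize the sheath appear in segments along it.

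Library totals ranged from 39955994 to 81471212 counts. The deeper libraries, 4 in number (library 3 of each population and entpd5a+ library 2), also stood apart in composition: hsp70l, a heat-shock gene, stood between 17953 and 27145 CPM there against 277 to 909 CPM in the 5 shallower ones. Ribosomal protein genes (79 IDs) took 1.78% to 2.51% of their counts against 5.07% to 8.79%. The sort labels held in the transcripts: COL9A2 stood between 7734 and 11555 CPM in the col9a2+, 811 and 1578 CPM in the double-positive and 64.7 and 429 CPM in the entpd5a+ libraries, and ENTPD5 stood between 129 and 452, 10365 and 18661, and 3141 and 5676 CPM. The sheath list (11 IDs, all above 1 CPM in every library) summed to 47585 to 69806 CPM in col9a2+, 32271 to 52321 CPM in double-positive and 7859 to 14135 CPM in entpd5a+ libraries. This sum was several-fold lower in the last, but its members did not all follow it. COL2A1 (ENSDARG00000069093) stood at 28713 to 50500, 1706 to 5141 and 82.2 to 1143 CPM in the same order. krt18a.1 stood at 1445 to 1537, 10588 to 14684 and 4346 to 9555 CPM, and col8a1a at 142 to 676, 8504 to 19112.5 and 443 to 1076 CPM. The osteoblast list (11 IDs) summed to 1297 to 3756 CPM, 21097 to 29343 CPM and 54596 to 92310 CPM in the same order, with bglap (osteocalcin) at 0 to 0.225 CPM throughout. It includes ENTPD5, and the sheath list COL9A2, the genes that name the populations. The osteoblast sum exceeded the sheath sum in every entpd5a+ library. Whether all cells sorted as entpd5a+ were sheath cells was not tested. In double-positive libraries 1, 2 and 3 the osteoblast list summed to 29343, 22986 and 21097 CPM. ENTPD5 alone gave 10365, 18661 and 13079 CPM of these. Of other cell types, the endothelial list (9 IDs) summed to 337 CPM in double-positive library 1, against 45.2 to 145 CPM elsewhere. All 9 exceeded 1 CPM there and in entpd5a+ library 3, where the sum was 113 CPM. The 145 CPM, in double-positive library 2, came mostly from CLDN5 (ENSDARG00000043716) at 141 CPM. The muscle list (7 IDs) reached 1595 CPM in entpd5a+ library 3 against 72.3 to 474 CPM elsewhere. The leukocyte list (8 IDs) summed to 4.496 to 31.0 CPM, the erythroid list (7 IDs) to 1.20 to 24.9 CPM, the neural list (9 IDs) to 29.9 to 117 CPM and the epidermis list (8 IDs) to 3234 to 11831 CPM. Within the epidermis list, epcam stood at 185 to 439 CPM in col9a2+ and 6.37 to 27.1 CPM in double-positive libraries. icn and cyt1 were also higher in every col9a2+ than in every double-positive library. krt4 was the reverse, at 2187 to 3120 against 5643 to 7849 CPM, and krt5, krt17, TP63 and agr1 overlapped. The part of epidermal transcripts in the differences below was not tested.

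Transcripts of replication and mitosis genes were mostly highest in the col9a2+ population and mostly lowest in the double-positive population. In mean CPM, 14 of 14 replication IDs and 18 of 21 mitosis IDs that passed the filter were highest in col9a2+ cells, and 11 and 16 of them were lowest in double-positive cells. This order of means was not counted over all genes. Between double-positive and col9a2+ cells, 5 members fell: the helicase subunits MCM4, MCM5 and MCM6 (ENSDARG00000057683), the ribonucleotide reductase subunit RRM1, and mki67, the gene of the Ki-67 protein of dividing cells. That is 10.9% of the 46, where 1.86% of all genes tested were called lower, and no member was called higher, where 1.68% of all genes were (edgeR's quasi-likelihood test, with p adjusted over all genes by Benjamini-Hochberg and a threshold of 0.05). At an unadjusted p under 0.05, 20 members were lower and 1 higher, where 9.14% and 7.09% of all genes were. DESeq2 called 14 lower and 0 higher, where it called 6.73% and 4.05% of all genes. To the 5 it added MCM2, MCM3, PCNA, RRM2 (ENSDARG00000078069), CCNA2, CDK1, AURKB, CCND1 and cdkn1ca. With the replicate number as a block, edgeR called 9 lower and 0 higher, where 2.6% and 2.78% of all genes were called, and MCM2, MCM3, TYMS and cdkn1a joined the 5. The 3 double-positive libraries lay below all 3 col9a2+ libraries for 19 of the 46 (41.3%), against 13.1% of all genes tested. The median log2 difference of the 46 was -1.23, against 0.01 over all genes, and 42 of the 46 were fitted lower. In bulk samples such as these, fewer dividing cells and less of these transcripts per cell cannot be told apart.

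**Figure D1:**
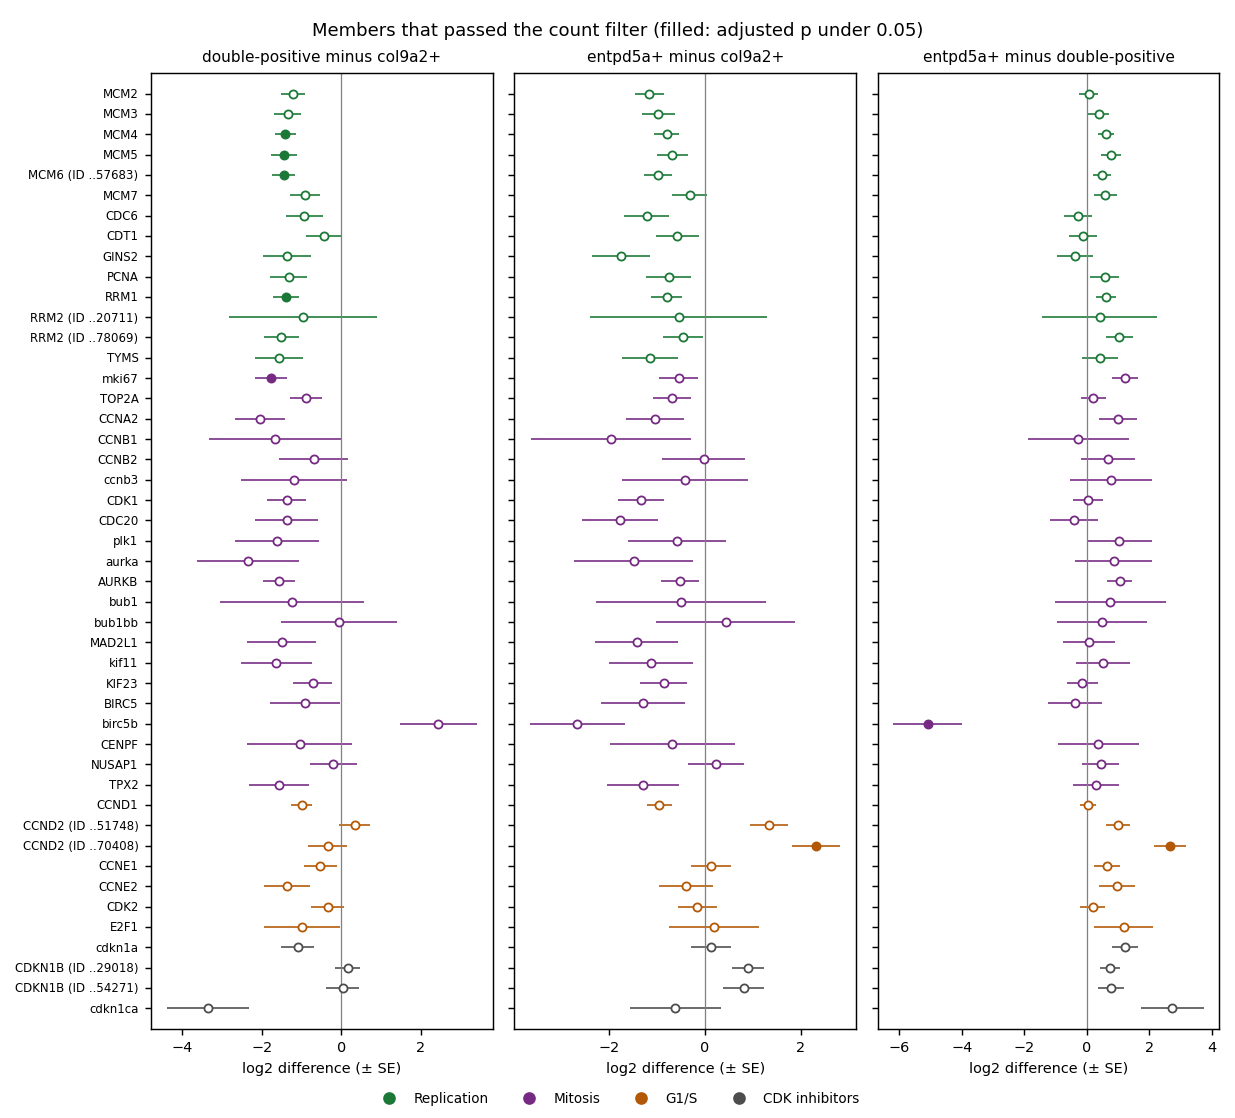
Log2 differences (x axis, ± SE) of the 46 IDs that passed the count filter, by role, in the 3 comparisons; filled symbols passed the test and the last 5 digits of the ID mark names with 2 IDs. The replication symbols all lie below 0 against col9a2+ cells, with a median of -1.36 for double-positive and -0.79 for entpd5a+ cells.

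Between entpd5a+ and col9a2+ cells all 14 replication IDs that passed the filter were fitted lower, with a median of -0.79 and a range from -1.74 to -0.31, and 19 of 21 mitosis IDs were, with a median of -0.86. No member was called lower by edgeR, where 2.34% of all genes were, and CCND2 (ENSDARG00000070408) was the 1 member called higher, where 2.68% of all genes were. At an unadjusted p under 0.05, 10 members were lower and 3 higher, where 7.92% and 8.92% of all genes were. DESeq2 called 6 lower and 2 higher, where it called 5.58% and 6.15% of all genes. Lower were MCM2, MCM4, MCM6 (ENSDARG00000057683), GINS2, birc5b and CCND1, and higher were both CCND2 IDs. The entpd5a+ libraries lay below all col9a2+ libraries for 13 of the 46 (28.3%), against 12.2% of all genes tested. This comparison shares the col9a2+ libraries with that of double-positive and col9a2+ cells.

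Between entpd5a+ and double-positive cells 38 of the 46 were fitted higher in entpd5a+ cells, with a median of 0.54, against 0.07 over all genes. Of the members 1 was called lower, birc5b, and 1 higher, CCND2 (ENSDARG00000070408), where 3.45% and 3.06% of all genes tested were. At an unadjusted p under 0.05, 1 member was lower and 10 higher, where 9% and 11.7% of all genes were, and DESeq2 called 1 lower and 5 higher, where it called 5.91% and 9.39%. By DESeq2 birc5b was lower, and mki67, AURKB, CCND2 (ENSDARG00000070408), cdkn1a and cdkn1ca were higher. No replication gene was called by the main edgeR fit or DESeq2, and at an unadjusted p under 0.05 edgeR had 0 lower and 3 higher. With a depth term edgeR called MCM5 higher in entpd5a+ than in double-positive cells (log2 difference 0.94, edgeR adjusted p = 0.0168). The entpd5a+ libraries lay above all double-positive libraries for 11 of the 46 (23.9%), against 14.3% of all genes. This is also the test of whether a replication gene lies farther from col9a2+ cells in one of these populations than in the other.

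Over the 3 populations at once, 8 of the 46 IDs differed (17.4%), where 9.41% of all genes did (edgeR). Of these, 5 were replication genes (MCM2, MCM4, MCM5, MCM6 (ENSDARG00000057683) and RRM1), 1 was birc5b, and 2 were the cyclins CCND1 and CCND2 (ENSDARG00000070408).

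Of the 5 falls between double-positive and col9a2+ cells, 3 were in helicase genes. MCM4, a subunit of the ring that unwinds DNA, stood at 166, 143 and 191 CPM in the col9a2+ libraries, at 69.7, 54.5 and 64.1 CPM in the double-positive and at 98.3, 95.7 and 94.4 CPM in the entpd5a+ libraries. The 3 populations did not overlap, with the entpd5a+ libraries in between and close to each other. Against col9a2+ cells MCM4 fell 2.65-fold in double-positive cells (log2 difference -1.41 ± 0.27 SE, edgeR adjusted p = 0.0195). The entpd5a+ difference was -0.79 ± 0.26 (adjusted p = 0.139), and that between entpd5a+ and double-positive cells 0.61 ± 0.26 (adjusted p = 0.221).

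MCM5, in the same ring, stood at 141, 124 and 98.9 CPM in the col9a2+, 51.1, 47.4 and 34.6 CPM in the double-positive and 104, 65.5 and 58.4 CPM in the entpd5a+ libraries. The double-positive libraries were below all others, while the highest entpd5a+ library overlapped the col9a2+ range. It fell 2.73-fold in double-positive cells (log2 difference -1.45 ± 0.33, edgeR adjusted p = 0.0408). MCM6 (ENSDARG00000057683), also of the ring, stood at 210.4, 175 and 202 CPM in col9a2+, 87.9, 70.0 and 56.9 CPM in double-positive and 103, 113 and 83.5 CPM in entpd5a+ libraries. All col9a2+ libraries were above the 6 others, among which the double-positive and entpd5a+ ranges overlapped. It fell 2.73-fold in double-positive cells (log2 difference -1.45 ± 0.29, adjusted p = 0.026), and its entpd5a+ difference from col9a2+ was -0.97 ± 0.29 (adjusted p = 0.0986).

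MCM2, of the same ring, overlapped between double-positive and entpd5a+ cells. Its values were 239.8, 187 and 245 CPM in col9a2+, 108, 71.1 and 111 CPM in double-positive and 111, 105 and 86.7 CPM in entpd5a+ libraries. All col9a2+ libraries were higher than the other 6, and the other 6 overlapped. MCM2 differed among the 3 populations (edgeR test of any difference, adjusted p = 0.0362), while neither difference from col9a2+ cells passed alone (-1.21 ± 0.31, adjusted p = 0.0626, and -1.15 ± 0.30, adjusted p = 0.0627). With the replicate block the double-positive difference passed (-1.22, edgeR adjusted p = 0.0388), and so did the entpd5a+ difference (-1.14, edgeR adjusted p = 0.041). In the same order, both passed with a depth term (edgeR adjusted p = 0.0221 and 0.0268) and by DESeq2 (adjusted p = 0.00103 and 0.00359). Of the 2 remaining subunits, MCM3 had no overlap between col9a2+ cells and either other population (log2 differences -1.35 ± 0.34 and -0.97 ± 0.34, adjusted p = 0.0647 and 0.163), and its double-positive difference passed with the block (-1.36, adjusted p = 0.0241). MCM7 overlapped in both (-0.91 ± 0.37 and -0.31 ± 0.37, adjusted p = 0.256 and 0.772), with means of 108 ± 33.4, 57.3 ± 21.8 and 86.7 ± 4.74 CPM (SD, n = 3) in col9a2+, double-positive and entpd5a+ cells.

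The factors that load and start the helicase did not pass the test in any comparison of the main edgeR fit. CDC6, a loader, had means of 9.51 ± 3.66, 4.99 ± 1.79 and 4.12 ± 0.563 CPM (SD, n = 3) in col9a2+, double-positive and entpd5a+ cells. CDT1, its partner, had the smallest difference of the replication genes between double-positive and col9a2+ cells, with overlapping libraries and a log2 difference of -0.44 ± 0.45. GINS2, of the complex that activates the helicase, was lowest in entpd5a+ cells at 9.44 ± 7.08 CPM against 31.6 ± 13.4 CPM in col9a2+ cells, a log2 difference of -1.74 ± 0.60 (edgeR adjusted p = 0.157). It passed by DESeq2 (adjusted p = 0.0492), with the replicate block (edgeR, -1.86, 0.0166), with a depth term (edgeR, 0.0188) and without entpd5a+ library 1 (edgeR, -2.55, 0.0409). The GINS2 difference of double-positive from col9a2+ cells passed with a depth term (edgeR, -1.35, 0.0199).

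PCNA, the sliding clamp and a common marker of S phase, stood at 665, 376 and 294 CPM in col9a2+, 258, 169 and 106 CPM in double-positive and 349, 178 and 267 CPM in entpd5a+ libraries. The double-positive libraries were below every col9a2+ library, while the entpd5a+ libraries overlapped both. The spread within each population was wide, and neither difference from col9a2+ cells passed (log2 -1.33 ± 0.47 and -0.75 ± 0.47, edgeR adjusted p = 0.183 and 0.495). The double-positive difference passed by DESeq2 (adjusted p = 0.0413) and with a depth term (edgeR adjusted p = 0.0341).

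RRM1, the large subunit of ribonucleotide reductase, stood at 83.2, 45.3 and 60.01 CPM in col9a2+, 26.0, 24.0 and 21.5 CPM in double-positive and 26.7, 37.2 and 45.0 CPM in entpd5a+ libraries. As for MCM4, the populations did not overlap and entpd5a+ cells lay in between. It fell 2.63-fold in double-positive cells (log2 difference -1.40 ± 0.33, edgeR adjusted p = 0.0467), and the entpd5a+ difference from col9a2+ was -0.79 ± 0.32 (adjusted p = 0.24). RRM2 (ENSDARG00000078069), the small subunit, showed no overlap between double-positive and col9a2+ libraries (log2 difference -1.50 ± 0.43, edgeR adjusted p = 0.0958, DESeq2 adjusted p = 0.00714). The other ID, RRM2 (ENSDARG00000020711), was low and scattered at 0 to 4.79 CPM. TYMS, thymidylate synthase, had the lowest fitted value of the replication genes in double-positive against col9a2+ cells (-1.57 ± 0.59, adjusted p = 0.215; 0.047 with the replicate block), with overlapping libraries.

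**Figure D2:**
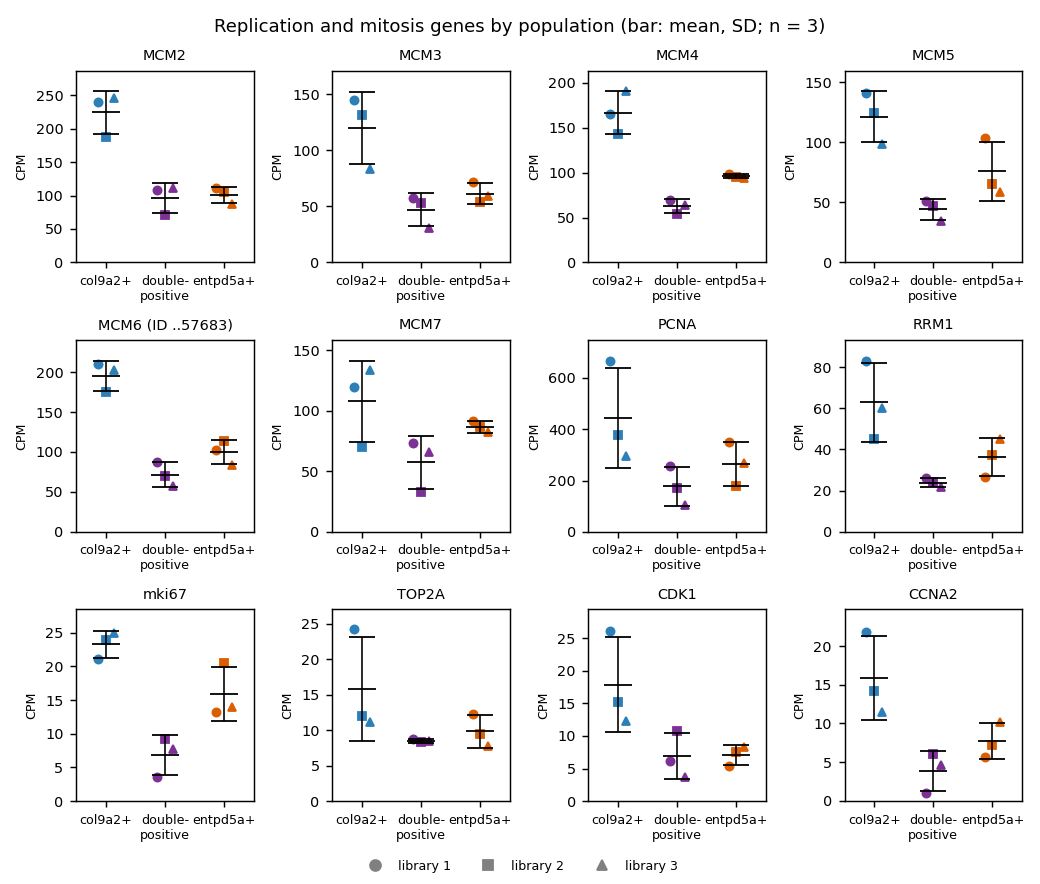
CPM (y axis, linear from 0) of 8 replication and 4 mitosis genes in each library (symbols, by library number) with the mean and SD of each population (lines, n = 3). For MCM2 and MCM4 all 3 col9a2+ libraries lie above all others, and for mki67 the 3 double-positive libraries, at 3.53 to 9.20 CPM, lie below all others.

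Among the mitosis genes mki67 alone fell between double-positive and col9a2+ cells by the edgeR test, where DESeq2 called 4 lower. It stood at 21.1, 23.9 and 24.9 CPM in col9a2+, 3.53, 9.20 and 7.74 CPM in double-positive and 13.2, 20.5 and 14.0 CPM in entpd5a+ libraries. The populations did not overlap, with double-positive cells lowest and entpd5a+ cells between. Its fall was 3.41-fold (log2 difference -1.77 ± 0.41, edgeR adjusted p = 0.0455). The entpd5a+ difference from col9a2+ was -0.55 ± 0.40 (adjusted p = 0.589), and that from double-positive cells 1.22 ± 0.40 (adjusted p = 0.115).

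TOP2A, the topoisomerase that untangles chromosomes, stood at 24.2, 12.0 and 11.2 CPM in col9a2+, 8.74, 8.27 and 8.42 CPM in double-positive and 12.2, 9.47 and 7.75 CPM in entpd5a+ libraries. The double-positive libraries were below the col9a2+ ones, 1 of which stood well above its companions. CDK1, the kinase that drives entry into mitosis, stood at 26.1, 15.2 and 12.3 CPM in col9a2+, 6.24, 10.7 and 3.73 CPM in double-positive and 5.36, 7.57 and 8.33 CPM in entpd5a+ libraries. All col9a2+ libraries were above the other 6, which overlapped. Neither gene passed the edgeR test in any comparison: the log2 differences of double-positive from col9a2+ cells were -0.90 ± 0.40 for TOP2A (edgeR adjusted p = 0.303) and -1.38 ± 0.48 for CDK1 (adjusted p = 0.176). DESeq2 called CDK1 lower in double-positive than in col9a2+ cells (adjusted p = 0.0408).

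The other mitosis genes were lower in CPM and more scattered. Between double-positive and col9a2+ cells 20 of the 21 mitosis IDs were fitted lower, where 49.5% of all genes were, with a median log2 difference of -1.37. For 8 (38.1%) the double-positive libraries lay below all col9a2+ libraries, against 13.1% of all genes tested. The kinase genes aurka and AURKB had differences of -2.34 ± 1.29 and -1.57 ± 0.41 (edgeR adjusted p = 0.428 and 0.0686), and CCNA2, cyclin A, had -2.04 ± 0.62 (adjusted p = 0.121). AURKB and CCNA2 passed by DESeq2 (adjusted p = 0.000583 and 0.011), and AURKB with a depth term (edgeR adjusted p = 0.0401). The genes of the spindle motors kif11 and KIF23, at -1.63 ± 0.89 and -0.72 ± 0.49, and of the spindle checkpoint protein MAD2L1, at -1.50 ± 0.86, had overlapping libraries. NUSAP1, of spindle microtubules, and bub1bb, of the checkpoint, were near 0 (-0.20 ± 0.59 and -0.06 ± 1.45). Both also had their highest mean in entpd5a+ cells.

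Part of this scatter came with very few reads. Cyclin B1 (CCNB1) had 1 count in double-positive library 1 and 1 in entpd5a+ library 1, and 0.0224 and 0.0225 CPM there against 6.81 and 3.86 CPM in library 2 of the same populations. The checkpoint kinase bub1 had 0 counts in both of these libraries, CENPF, a kinetochore gene, had 0 in double-positive library 1, and plk1, a mitotic kinase, had 3 counts there. In double-positive library 3, aurka and bub1bb had 1 count each and ccnb3, a cyclin B, 3. Of the 46 IDs, 36 had at least 10 counts in all 9 libraries.

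The survivin gene birc5b had its own pattern. Survivin, an inhibitor of apoptosis that also guides chromosomes in mitosis, has 2 genes in zebrafish. birc5b stood at 34.5, 70.8 and 12.3 CPM in double-positive, 4.28, 15.1 and 2.33 CPM in col9a2+ and 2.48, 0.243 and 0.759 CPM in entpd5a+ libraries. Every double-positive library was above every entpd5a+ library, and the col9a2+ range overlapped both. From double-positive to entpd5a+ cells it fell 34.2-fold, the 1 fall among the members in this comparison (log2 difference -5.09 ± 1.099, edgeR adjusted p = 0.0239). Against col9a2+ cells it was 2.44 ± 0.97 in double-positive (adjusted p = 0.241) and -2.65 ± 0.99 in entpd5a+ cells (adjusted p = 0.191). With 1 library left out these ranged from 1.68 to 3.57 and from -3.86 to -1.52, moved most by col9a2+ library 2, double-positive library 2 and entpd5a+ library 1. The entpd5a+ call was lost without double-positive library 2 (-4.34, adjusted p = 0.0746) and without entpd5a+ library 2 or 3. The value moved to -6.29 without entpd5a+ library 1. The other gene, BIRC5, had means of 4.94 ± 4.39, 2.62 ± 1.17 and 2.02 ± 1.56 CPM (SD, n = 3) in col9a2+, double-positive and entpd5a+ cells, and its libraries overlapped in all 3 comparisons. Whether reads were shared between the 2 genes was not tested.

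**Figure D3:**
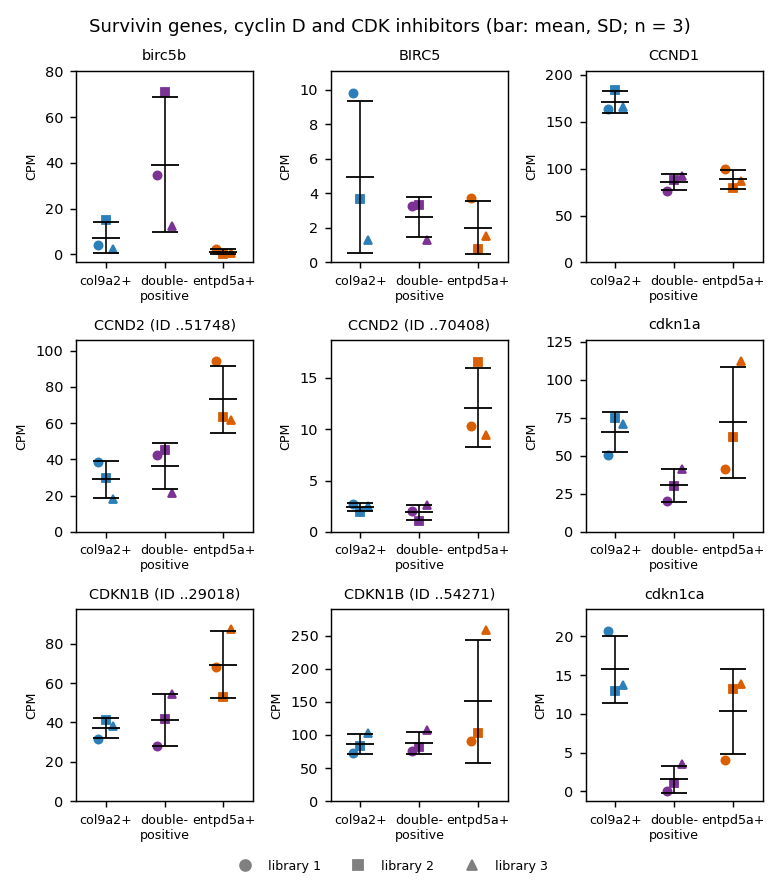
CPM (y axis, linear) of the survivin, D-type cyclin and CDK inhibitor genes in each library (symbols) with the mean and SD of each population (lines, n = 3). birc5b has its highest mean in double-positive cells, whose libraries, at 12.3 to 70.8 CPM, overlap the col9a2+ libraries, at 2.33 to 15.1 CPM. Both CCND2 IDs are highest in the entpd5a+ libraries and CCND1 in the col9a2+ libraries.

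The D-type cyclins divided between populations. CCND1, cyclin D1, stood at 163, 184 and 165 CPM in col9a2+, 76.1, 87.6 and 92.6 CPM in double-positive and 99.2, 79.7 and 86.4 CPM in entpd5a+ libraries. All col9a2+ libraries were above the others, which overlapped. The gene differed among the 3 populations (edgeR adjusted p = 0.0459), with differences from col9a2+ cells of -1 ± 0.26 in double-positive (adjusted p = 0.0718) and -0.95 ± 0.26 in entpd5a+ cells (adjusted p = 0.0731). In the same order, both passed by DESeq2 (adjusted p = 6.49e-05 and 0.00055) and with a depth term (edgeR adjusted p = 0.0177 and 0.0253).

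CCND2 (ENSDARG00000070408), a cyclin D2 gene, ran the other way. It stood at 10.3, 16.5 and 9.48 CPM in entpd5a+, 2.74, 1.96 and 2.54 CPM in col9a2+ and 2.01, 1.09 and 2.58 CPM in double-positive libraries. The entpd5a+ libraries were above all others, and the other 6 overlapped. It rose 5.01-fold from col9a2+ to entpd5a+ cells (log2 difference 2.33 ± 0.51, edgeR adjusted p = 0.0294) and 6.38-fold from double-positive to entpd5a+ cells (2.67 ± 0.52, adjusted p = 0.0151). The first call was lost without any 1 col9a2+ library and without entpd5a+ library 2 or 3, and the second without double-positive library 2 or entpd5a+ library 2. The values stayed within 2.04 to 2.44 and 2.38 to 2.96. The other ID, CCND2 (ENSDARG00000051748), also had its 3 entpd5a+ libraries, at 94.3, 63.2 and 61.8 CPM, above all others, with differences of 1.34 ± 0.39 from col9a2+ (adjusted p = 0.093) and 1.01 ± 0.39 from double-positive cells (adjusted p = 0.176). The first passed by DESeq2 (adjusted p = 0.0219), with the replicate block (edgeR, 0.0206) and with a depth term (edgeR, 0.00371). The second passed with the block (edgeR, 0.0494) and a depth term (edgeR, 0.00704) but not by DESeq2.

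Of the later G1/S genes, CCNE2, a cyclin E, had -1.36 ± 0.58 between double-positive and col9a2+ cells and overlapping libraries (edgeR adjusted p = 0.277). CCNE1, the kinase gene CDK2 and the transcription factor gene E2F1 had adjusted p values of 0.442 or higher in every comparison.

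The CDK inhibitors had no call in any comparison by edgeR. At an unadjusted p under 0.05, 2 of 4 IDs were lower in double-positive than in col9a2+ cells, where 9.14% of all genes were. Of the 4, 1 was higher in entpd5a+ than in col9a2+ cells, where 8.92% of all genes were. In entpd5a+ against double-positive cells 3 were higher, where 11.7% of all genes were. DESeq2 called 1 lower, 0, and 2 higher in the same order. Of all genes it called 6.73% lower, 5.58% lower and 6.15% higher, and 9.39% higher. cdkn1ca, of the p57 family, stood at 20.7, 12.9 and 13.7 CPM in col9a2+, 0.0671, 1.04 and 3.48 CPM in double-positive and 4.01, 13.2 and 13.8 CPM in entpd5a+ libraries. Its double-positive libraries were below all others. The log2 difference of double-positive from col9a2+ cells, -3.35 ± 1.03, did not pass (edgeR adjusted p = 0.123), nor did that of entpd5a+ from double-positive cells, 2.75 ± 1.01 (adjusted p = 0.153). Without double-positive library 3 the first was -4.84 and the second 4.23.

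CDKN1B (ENSDARG00000054271), of the p27 family, stood at 72.6, 82.6 and 102 CPM in col9a2+, 76.2, 81.1 and 107 CPM in double-positive and 91.1, 103 and 258 CPM in entpd5a+ libraries. The populations overlapped, and entpd5a+ library 3, which also held the most muscle transcripts, stood far above its companions; their part in this value was not tested. CDKN1B (ENSDARG00000029018) had its 3 entpd5a+ libraries, at 68.1, 52.9 and 87.3 CPM, above the col9a2+ libraries (log2 difference 0.90 ± 0.33, edgeR adjusted p = 0.177). cdkn1a, of the p21 family, had means of 65.4 ± 13.1, 30.6 ± 10.7 and 71.9 ± 36.5 CPM (SD, n = 3) in col9a2+, double-positive and entpd5a+ cells, with -1.097 ± 0.42 between double-positive and col9a2+ cells (adjusted p = 0.222; 0.0457 with the replicate block).

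Other genes of the same pathways were counted from wider lists. Of 44 further replication IDs that passed the filter, 42 were fitted lower in double-positive than in col9a2+ cells, with a median of -1.03, and 3 (6.82%, where 1.86% of all genes were called lower) fell by the edgeR test: POLD1, PRIM2 and UHRF1. POLD1, the catalytic subunit of a replicative polymerase, stood at 52.9, 34.6 and 50.2 CPM in col9a2+, 15.8, 15.96 and 18.1 CPM in double-positive and 30.4, 32.6 and 30.6 CPM in entpd5a+ libraries. The populations did not overlap, with entpd5a+ cells again between the others, and the fall was 2.76-fold (log2 difference -1.47 ± 0.28, adjusted p = 0.0195).

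UHRF1, which helps to keep DNA methylation through replication, stood at 77.1, 72.4 and 96.4 CPM in col9a2+, 21.9, 25.1 and 37.1 CPM in double-positive and 64.2, 54.6 and 49.5 CPM in entpd5a+ libraries. It too showed no overlap and fell 2.92-fold in double-positive cells (-1.55 ± 0.30, edgeR adjusted p = 0.0212). PRIM2, a primase subunit, stood at 21.9, 18.9 and 27.9 CPM in col9a2+, 8.47, 7.62 and 5.78 CPM in double-positive and 14.7, 12.1 and 19.1 CPM in entpd5a+ libraries. Its double-positive libraries were below all others, and it fell 3.14-fold (-1.65 ± 0.34, adjusted p = 0.0294). The call of PRIM2 was lost without any 1 of the col9a2+ and double-positive libraries. That of POLD1 was lost without any 1 of them except col9a2+ library 2, and that of UHRF1 without any 1 except double-positive library 3. The log2 differences of the 3 genes stayed between -1.80 and -1.36.

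Between entpd5a+ and col9a2+ cells 43 of these 44 were fitted lower, with a median of -0.63, and 0 were called by edgeR. At an unadjusted p under 0.05, 8 were lower and 0 higher, where 7.92% and 8.92% of all genes were. DESeq2 called 3 lower and 0 higher, where it called 5.58% and 6.15% of all genes. In that comparison none of the 52 further mitosis IDs was called by edgeR either. Of the 52, 6 were lower and 1 higher at an unadjusted p under 0.05, and DESeq2 called 1 lower and 0 higher. The shares of all genes are the same as for the replication IDs.

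Of the 52 further mitosis IDs, edgeR called 1 lower in double-positive than in col9a2+ cells (1.92%) and 2 higher in entpd5a+ than in double-positive cells (3.85%), shares close to those of all genes, 1.86% and 3.06%. The called genes were SMC2 and SMC4, of the condensin complex that compacts chromosomes. SMC2 stood at 21.3, 7.497 and 14.5 CPM in col9a2+, 3.11, 2.65 and 3.49 CPM in double-positive and 14.7, 10.6 and 10.2 CPM in entpd5a+ libraries. The double-positive libraries were below all others, which overlapped. SMC2 fell 4.68-fold from col9a2+ to double-positive cells (log2 difference -2.23 ± 0.45, edgeR adjusted p = 0.0258) and was 3.83-fold higher in entpd5a+ than in double-positive cells (1.94 ± 0.45, adjusted p = 0.0315). SMC4 stood at 21.4, 10.6 and 13.3 CPM in col9a2+, 5.55, 7.56 and 10.6 CPM in double-positive and 36.4, 47.5 and 21.0 CPM in entpd5a+ libraries. Every entpd5a+ library was above every double-positive library, by 4.42-fold on average (2.14 ± 0.44, adjusted p = 0.0197). The 2 calls against double-positive cells were lost without double-positive library 1 or 2 or without entpd5a+ library 2, and that of SMC2 also without double-positive library 3, col9a2+ library 3 or entpd5a+ library 1 or 3 and in a fit of the 6 libraries compared. The call of SMC2 against col9a2+ cells was lost without col9a2+ library 1 or 3 or any 1 double-positive library. Of the 52, 46 were fitted lower in double-positive than in col9a2+ cells, with a median of -1.23. DESeq2 called 9 lower and 0 higher there, where it called 6.73% and 4.05% of all genes. At an unadjusted p under 0.05, 10 were lower and 0 higher, where 9.14% and 7.09% of all genes were. For 20 (38.5%) the double-positive libraries lay below all col9a2+ libraries, against 13.1% of all genes tested. Between entpd5a+ and double-positive cells DESeq2 called 0 lower and 4 higher, where it called 5.91% and 9.39% of all genes.

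The further G1/S genes (10 IDs) and the further brakes on the cycle (24 IDs, such as retinoblastoma family, p53 and BTG genes) had no call in any comparison by edgeR. At an unadjusted p under 0.05, 1 of the 10 was lower in double-positive and 1 lower in entpd5a+ than in col9a2+ cells, and 1 was higher in entpd5a+ than in double-positive cells. For the brakes these counts were 1 lower and 2 higher, 0, and 2 lower and 1 higher. Of all genes, 9.14% were lower and 7.09% higher in double-positive than in col9a2+ cells. The shares were 7.92% and 8.92% for entpd5a+ against col9a2+ cells, and 9% and 11.7% for entpd5a+ against double-positive cells. DESeq2 called 1 G1/S gene, higher in entpd5a+ than in double-positive cells, and 2 brakes, 1 lower in double-positive than in col9a2+ cells and 1 higher in entpd5a+ than in double-positive cells. Of all genes it called 9.39% higher in entpd5a+ than in double-positive cells and 6.73% lower in double-positive than in col9a2+ cells.

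The libraries ranked differently in replication than in mitosis genes. The mean log2 CPM of the 14 replication IDs was 6.04, 5.41 and 5.11 in the col9a2+ libraries, 4.74, 4.30 and 3.84 in the double-positive and 5.01, 4.29 and 4.74 in the entpd5a+ libraries. Every col9a2+ library was above all others in this mean. For the 21 mitosis IDs the means were 3.10, 2.70 and 2.06 in col9a2+, 0.17, 2.34 and 0.67 in double-positive and 1.16, 1.95 and 1.70 in entpd5a+ libraries. Here double-positive library 2 stood above col9a2+ library 3 and above all entpd5a+ libraries, while the 2 other double-positive libraries were the lowest of the 9. The distance between the 2 means was 2.95, 2.71 and 3.05 in col9a2+ libraries, 4.57, 1.96 and 3.17 in double-positive and 3.85, 2.34 and 3.04 in entpd5a+ libraries. The first population was thus narrow, and the others ranged to both sides of it.

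**Figure D4:**
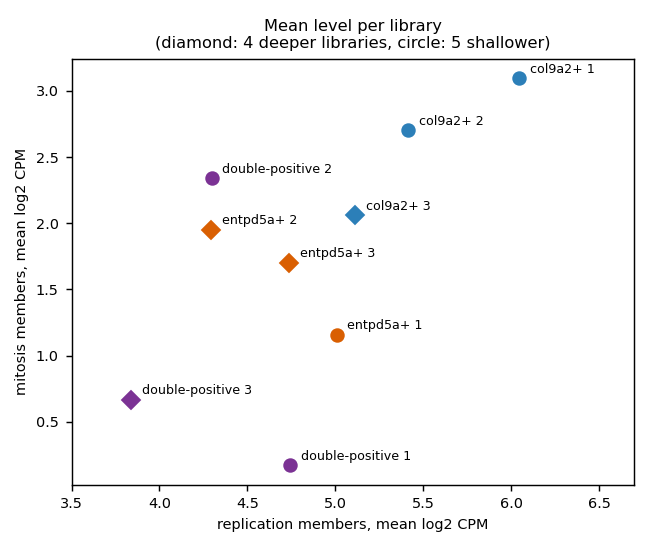
Mean log2 CPM of the 14 replication IDs (x axis) against that of the 21 mitosis IDs (y axis), 1 symbol per library; diamonds mark the 4 deeper libraries. The col9a2+ libraries are the 3 farthest to the right, from 5.11 to 6.04, while double-positive library 1 has the lowest mitosis mean, 0.17, at a replication mean of 4.74.

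**Figure D5:**
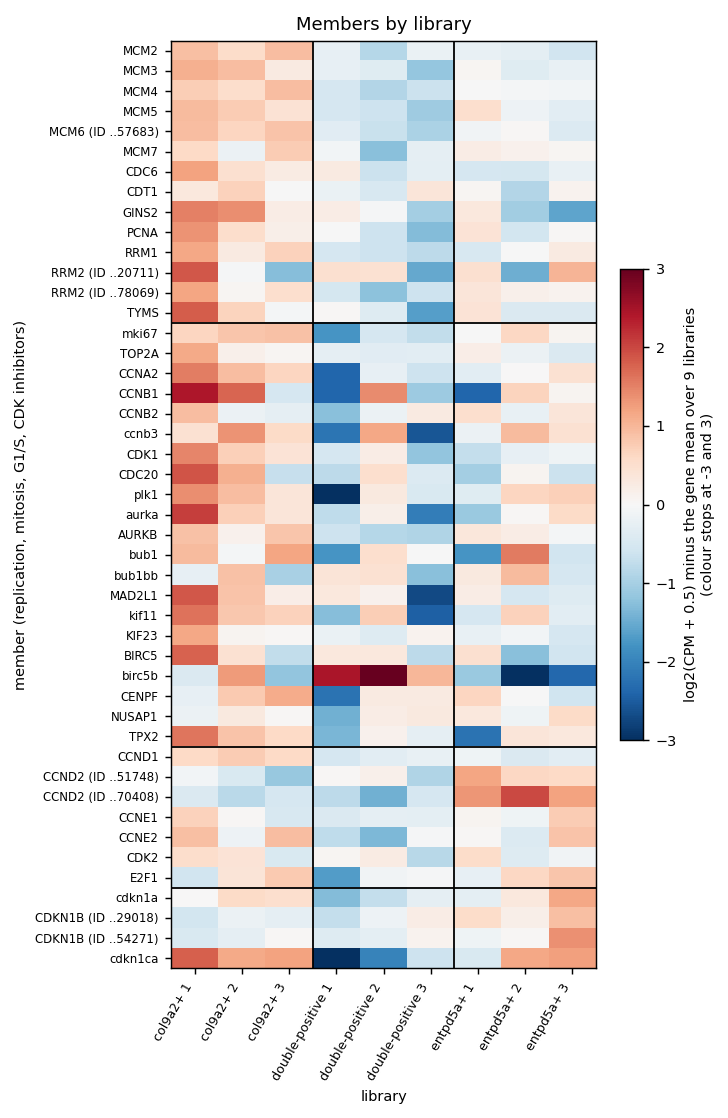
The 46 IDs (y axis, grouped by role) in the 9 libraries (x axis), coloured by log2(CPM + 0.5) minus the gene's mean over the libraries, with colours that stop at -3 and 3. The replication genes are above their mean in col9a2+ columns with few exceptions, while the mitosis genes are uneven within the double-positive columns, with library 2 above libraries 1 and 3 for many of them.

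The calls depended on having all libraries. Without any 1 of the 6 col9a2+ and double-positive libraries, none of the 5 falls kept its call, and 0 members were called, except that ccnb3 passed without double-positive library 2 (log2 difference -5.45, edgeR adjusted p = 0.0395). Without entpd5a+ library 1, 2 or 3 the count was 5, 2 and 4. RRM1 also missed the threshold without the count filter, and mki67 in a fit of the 6 libraries compared. The sizes of the differences moved little: that of MCM4 stayed between -1.51 and -1.30 (adjusted p from 0.0228 to 0.0995), that of RRM1 between -1.58 and -1.15 and that of mki67 between -2.05 and -1.46, and the median of the replication genes between -1.50 and -1.14. Without double-positive library 1, which had the highest endothelial sum, MCM4 had -1.49 (edgeR adjusted p = 0.0600) and mki67 -1.46 (edgeR adjusted p = 0.0972). The median of the mitosis genes then moved from -1.37 to -1.09.

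The replication difference had the same sign in both depth groups. In the 5 shallower libraries alone the median of the replication genes between double-positive and col9a2+ cells was -1.33, and of the members MCM3 and MCM5 were called lower (-1.35 and -1.46, edgeR adjusted p = 0.0482 and 0.0409) and 0 higher, where 1.7% and 1.22% of all genes were. In the deeper libraries, with 1 col9a2+ and 1 double-positive library and so no test, the replication means were 5.11 and 3.84, and those of the 2 entpd5a+ libraries 4.29 and 4.74. With depth as a term in the fit, 13 members were called lower and 1, birc5b, higher, where 3.53% and 3.37% of all genes were.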

How the data were processed

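Libraries were made from total RNA of sorted cells with an ultra-low-input kit, per the labels' protocols. The files deposited by the authors give raw counts for each Ensembl ID, 1 file per library. HISAT2, HTSeq and the build GRCz10 are named in the submitters' processing notes; versions and strand setting are not given in the sources used here. Reads shared between paralogs were not traced. A name table covered 26433 of the 32266 IDs. Without transcript lengths, levels are not compared between genes, and positions and sequences were not used here.

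The fit used edgeR 4.0.16 in R 4.3.3: filterByExpr by population, TMM factors, and a robust quasi-likelihood model of all 9 libraries with 1 coefficient per population and two-sided F tests, adjusted over 19039 genes. SE is the size of the log2 difference over the square root of F. Values in CPM use TMM-scaled totals, and log2 CPM a prior count of 2. It is not stated whether replicates are separate fish, pools or sorts, and a p value then covers the spread among these libraries, which may be technical. Alternatives were other scaling factors (RLE, upper quartile), no count filter, DESeq2 1.42.0, only the 6 libraries compared, a replicate block, a depth term (divided at the largest gap in totals), each library left out and, chosen after seeing the data, the 5 shallower libraries alone.

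The labels do not say what a replicate number marks. Same-numbered double-positive and col9a2+ libraries deviated together across genes (r = 0.181, 0.219 and 0.332). Blocked values therefore stand beside the results of that comparison that they change. Number 2 of entpd5a+ did not follow (r = -0.106 and -0.103). Libraries of different numbers were not compared. Library 3 was the deeper library of both col9a2+ and double-positive cells, and entpd5a+ library 2 was deeper while its same-numbered partners were shallower. Whether these r values reflect a shared replicate or a shared depth was not tested.

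Members and lists were chosen with earlier results of these data known. Named with every library's value are members called in any test, the member with the highest mean and the one with the smallest p in each role, the markers PCNA, mki67, TOP2A and CDK1, and called genes of the wider lists. Values of other members were chosen after they were seen.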

Additional observations from a re-analysis of the deposited data

How the results depend on the processing

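RLE and upper-quartile factors and, for each pair, fitting only its 6 libraries left every pairwise count of called members within 1.5 times its value, as did leaving out the count filter, although members differing among the 3 populations then numbered 4 in place of 8. No named gene's difference with an unadjusted p under 0.05 in the main fit reversed its sign under these or the other alternatives. No median of the replication or mitosis members did either. The mitosis median between entpd5a+ and double-positive cells went from 0.44 to 0.000165 in the 5 shallower libraries, with 10 IDs fitted lower and 11 higher. DESeq2 called 14 members between double-positive and col9a2+ cells in place of 5, 8 between entpd5a+ and col9a2+ cells in place of 1, 6 between entpd5a+ and double-positive cells in place of 2, and 16 over the 3 populations. A depth term gave 14, 6, 4 and 14 in the same order, and the 5 shallower libraries alone, with 1 entpd5a+ library assumed to vary like the others, gave 2, 0, 0 and 0, from fewer samples. Leaving out 1 library gave 0 to 5, 0 to 2, 0 to 2 and 1 to 8. The share of all genes called changed with the setting as well. Lower in double-positive than in col9a2+ cells were 1.86% of all genes in the main fit, 6.73% by DESeq2 and 3.53% with a depth term. A larger count of members is therefore not by itself a result about the members. Shares for the entpd5a+ comparisons with a depth term, and for fits with 1 library left out, are not given here. The causes of the differences between tools were not tested. Low counts limit the mitosis genes most.

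With a replicate block 9, 4, 4 and 13 members were called in the same order. Between double-positive and col9a2+ cells the block called 2.6% of all genes lower and 2.78% higher, against 1.86% and 1.68% in the main fit. The shares of all genes for the other blocked counts are not given here. Whether the block applies to the entpd5a+ comparisons is not given by the labels, and their same-numbered libraries did not deviate together throughout.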
